A study of Danio rerio with 30 samples.

Results

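Phenylhydrazine (Phz) was compared with no Phz in haematopoietic stem and progenitor cells of zebrafish embryos heterozygous for a mutation in rps14, all of them given the vehicle DMSO. The Phz group held 5 libraries, titled Het_Phz_DMSO, and the unstressed group 4 libraries, titled Het_None_DMSO. These 9 libraries were chosen by their titles from 30 in the series. Embryos of the Phz group had been bathed in 1 µg/mL Phz between 24 and 48 h after fertilisation and then washed. Both groups then received DMSO for 4 days and were sorted at 6 days, so each library reports on cells taken 4 days after the drug was removed. Every embryo of both groups carried 1 mutant rps14 copy and the itga2b:GFP transgene, and the cells were those with low GFP. Each library is a pool of embryos genotyped from tail clips, so it averages over animals. Whether the pools within a group came from separate clutches or days was not given, and p-values measure the spread between these pools. The libraries were made with Smart-seq2, a full-length protocol for small amounts of RNA, and the values below start from the authors' gene counts. The other groups used here, each kept for a test of a difference, were wild-type embryos with DMSO (3 libraries with Phz, 3 without) and heterozygous embryos with imiquimod, a ligand of the receptor TLR7, at 20 µM in place of DMSO (4 with Phz, 3 without).

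Phz oxidises haemoglobin and destroys circulating red cells, and the embryo answers by making new ones from erythroid progenitors. Rps14 is a protein of the small ribosomal subunit, and loss of 1 copy of its human counterpart is linked to the anaemia of del(5q) myelodysplastic syndrome. In zebrafish, low expression of the itga2b reporter marks stem and progenitor cells, high expression marks thrombocytes, and inflammatory signals such as interleukin 1 and tumour necrosis factor act on stem cell emergence and on the balance between myeloid and erythroid output.

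The libraries held 5789665 to 8682242 counts. Total counts averaged 7235629 in Phz and 6787317 in unstressed libraries, the 50 most abundant genes took 27.33% and 27.16% of them, and mitochondrial genes 1.92% and 1.65%. None of these measures, nor the number of genes detected, separated the groups (exact permutation test, two-sided, adjusted p = 0.706 for each). The library number in the labels, whose meaning is not given, ran S27 to S29 and S32 to S33 in the Phz group and S4 and S16 to S18 in the unstressed group. No number is shared, so what the number stands for and Phz cannot be told apart, and the number sets S27 to S29 and S32 to S33 are given separately below. Mitochondrial genes took 1.87%, 1.69% and 1.45% in S27 to S29 and 2.23% and 2.33% in S32 and S33, against 2.16%, 1.27%, 1.47% and 1.70% in unstressed libraries. Genes detected numbered 17005, 17594 and 17619 in S27 to S29 and 16698 and 14789 in S32 and S33. The part of these measures in the differences between the sets was not tested. Levels are given in CPM, a gene's counts scaled to the total of its library. rps14 itself, RPS14 in the symbol table, had 300, 220, 332, 264 and 258 CPM in Phz libraries, against 268, 201, 233 and 295 CPM in unstressed libraries. Those groups overlap (log2 fold change 0.20, SE 0.25), and the 6 wild-type DMSO libraries lay above all 9, between 428 and 655 CPM. itga2b was low throughout, with 3.08 to 22.6 CPM in Phz and 10.4 to 33.5 CPM in unstressed libraries. Markers of other blood cells were present in every library: the neutrophil list summed to between 9462 and 25698 CPM in Phz and between 8527 and 22328 CPM in unstressed libraries, and the macrophage list to between 2027 and 5927 CPM and between 3833 and 6005 CPM. TLR7, the receptor for imiquimod, was at 0 in S27, S32 and 3 unstressed libraries and reached 5.18 CPM at most.

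No gene passed the threshold between Phz and unstressed heterozygous cells. Of 19930 genes tested with edgeR's quasi-likelihood test, 0 (0%) had a Benjamini-Hochberg adjusted p under 0.05, 1394 (6.99%) had an unadjusted p under 0.05, limma voom called 0 and DESeq2 called 17 (0.0853%), 4 of them higher and 13 lower with Phz. At the unadjusted threshold 483 genes (2.42%) were higher and 911 (4.57%) lower. These counts take the spread from all 30 libraries. In a model of the 9 libraries alone, 460 of 14414 genes tested had an unadjusted p under 0.05. The 5 Phz libraries lay above all 4 unstressed ones for 95 genes (0.477%) and below them for 211 (1.06%), so 306 (1.54%) did not overlap. In simulated counts with the same groups, the test called 53% of genes changed by 2 on the log2 scale. Of genes changed by 4 it called 86%, so smaller changes would often be missed. The changed genes there had a mean of at least 2 CPM. All libraries of a group shared the same mean, and the spread followed its trend over genes. These rates do not cover genes of lower level or genes that differ between the number sets. The 12 genes of smallest p in each direction at a mean level of at least 1 log2 CPM are described next as the leading genes, all with an adjusted p of 0.57. The values that follow are a description of genes picked for their p.

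GFM2 (ENSDARG00000005561), an elongation factor that helps recycle mitochondrial ribosomes, led the higher genes. Its level was 27.7, 29, 34.7, 22 and 48.6 CPM in Phz libraries, against 4.40, 11.14, 17.6 and 7.82 CPM in unstressed ones. The groups did not overlap, the log2 fold change was 1.72 (SE 0.41), and DESeq2 gave an adjusted p of 0.0261. GATA3, a transcription factor of T cells and other lymphoid cells that also acts in stem cell formation, had 143, 145, 75.7, 117 and 214 CPM with Phz, against 63.9, 59.5, 67.4 and 88.1 CPM without. S29 lay inside the unstressed range and the other 4 Phz libraries above it (log2 fold change 1.04, SE 0.25). SOX4, a transcription factor of progenitor cells, had 48.7, 46.0, 35.6, 64.5 and 58.1 CPM with Phz, against 23, 25.9, 22.5 and 27.9 CPM without. Its groups were separate (log2 fold change 1.07, SE 0.32). The p53 inhibitor and target mdm2 had 130, 226, 147, 110 and 109 CPM with Phz, against 86.2, 124, 78.4 and 72.5 CPM without. Here S32 and S33 lay below the unstressed library S16 (log2 fold change 0.73, SE 0.22). MEF2A, a transcription factor of the MADS-box family, differed between the number sets: S32 and S33 had 234 and 211 CPM, above all others, while S27 to S29 had 83.4, 131 and 119 CPM, against 69.8, 78.3, 101 and 131 CPM in unstressed cells. The other higher leading genes were the kinase MARK2 (log2 fold change 0.82), the ubiquitin ligase adaptor NDFIP2 (0.80), the RNA-binding protein FAM120A (1.03), the calcium-dependent membrane-binding protein CPNE3 (0.85), the F-box protein fbxw11a (1.57), the kinase tnk1 (2.995) and the mitochondrially encoded oxidase subunit MT-CO3 (0.52). Phz libraries lay above every unstressed library for 7 of the 12, against 0.477% of all genes, a separation that picking them by p favours.

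EIF2S1 (ENSDARG00000005827), the alpha subunit of the initiation factor that stress kinases phosphorylate, led the lower genes. It had 65.9, 44.0, 88.3, 81.6 and 90.9 CPM in Phz libraries, against 149, 143, 118 and 130 CPM in unstressed ones. The groups were separate (log2 fold change −0.82, SE 0.19; DESeq2 adjusted p 0.0164). A second gene of the same symbol (ENSDARG00000052178) had 171 to 263 CPM with Phz and 240 to 297 CPM without, so the groups overlapped there. DYRK2, a kinase that acts on p53 and on protein turnover, had 21.7, 20.6, 16.6, 21.5 and 5.36 CPM with Phz, against 50.5, 46.3, 57.0 and 32.6 CPM without (log2 fold change −1.38, SE 0.35). ADAM17, the protease that sheds tumour necrosis factor and other membrane ligands, had 30.1, 44.5, 46.6, 45.2 and 42.6 CPM with Phz, against 148, 80.2, 65.3 and 53.1 CPM without. Both genes kept all Phz libraries under all unstressed ones, though for ADAM17 the unstressed values spread widely around S4. The immunoglobulin heavy chain gene ighm, a B-cell marker, had 16.3, 10.8, 16.8, 11.7 and 16.1 CPM with Phz, against 48.3, 39.65, 33 and 26.8 CPM without (log2 fold change −1.31, SE 0.37). The lymphoid list that holds ighm and GATA3 did not fall with ighm. Of its tested members 21 of 32 had a positive log2 fold change (65.6%, against 46.2% of all genes), with a median of 0.18. By number set 16 of 32 were positive in S27 to S29 (median 0.00) and 18 of 32 in S32 to S33 (median 0.17). The DNA methyltransferase dnmt3bb.3 had 9.98, 9.0, 4.26, 8.53 and 8.19 CPM with Phz, against 40.6, 25.3, 12.3 and 12.8 CPM without (log2 fold change −1.47, SE 0.41). The remaining lower genes were the microtubule minus-end protein CAMSAP2 (log2 fold change −1.68), PDPR, a regulator of pyruvate dehydrogenase phosphatase (−0.80), the ethanolamine kinase ETNK2 (−3.23), the endosomal GTPase RAB22A (−1.06), the actin adaptor DBNL (−0.99), the ubiquitin ligase adaptor KLHL18 (−1.27) and the chromatin remodeller smarca1 (−1.33). Phz libraries lay below every unstressed library for 8 of the 12, against 1.06% of all genes, again among genes picked by p. As a bulk measurement, a lower level cannot tell fewer cells of a type from less RNA per cell.

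**Figure D1:**
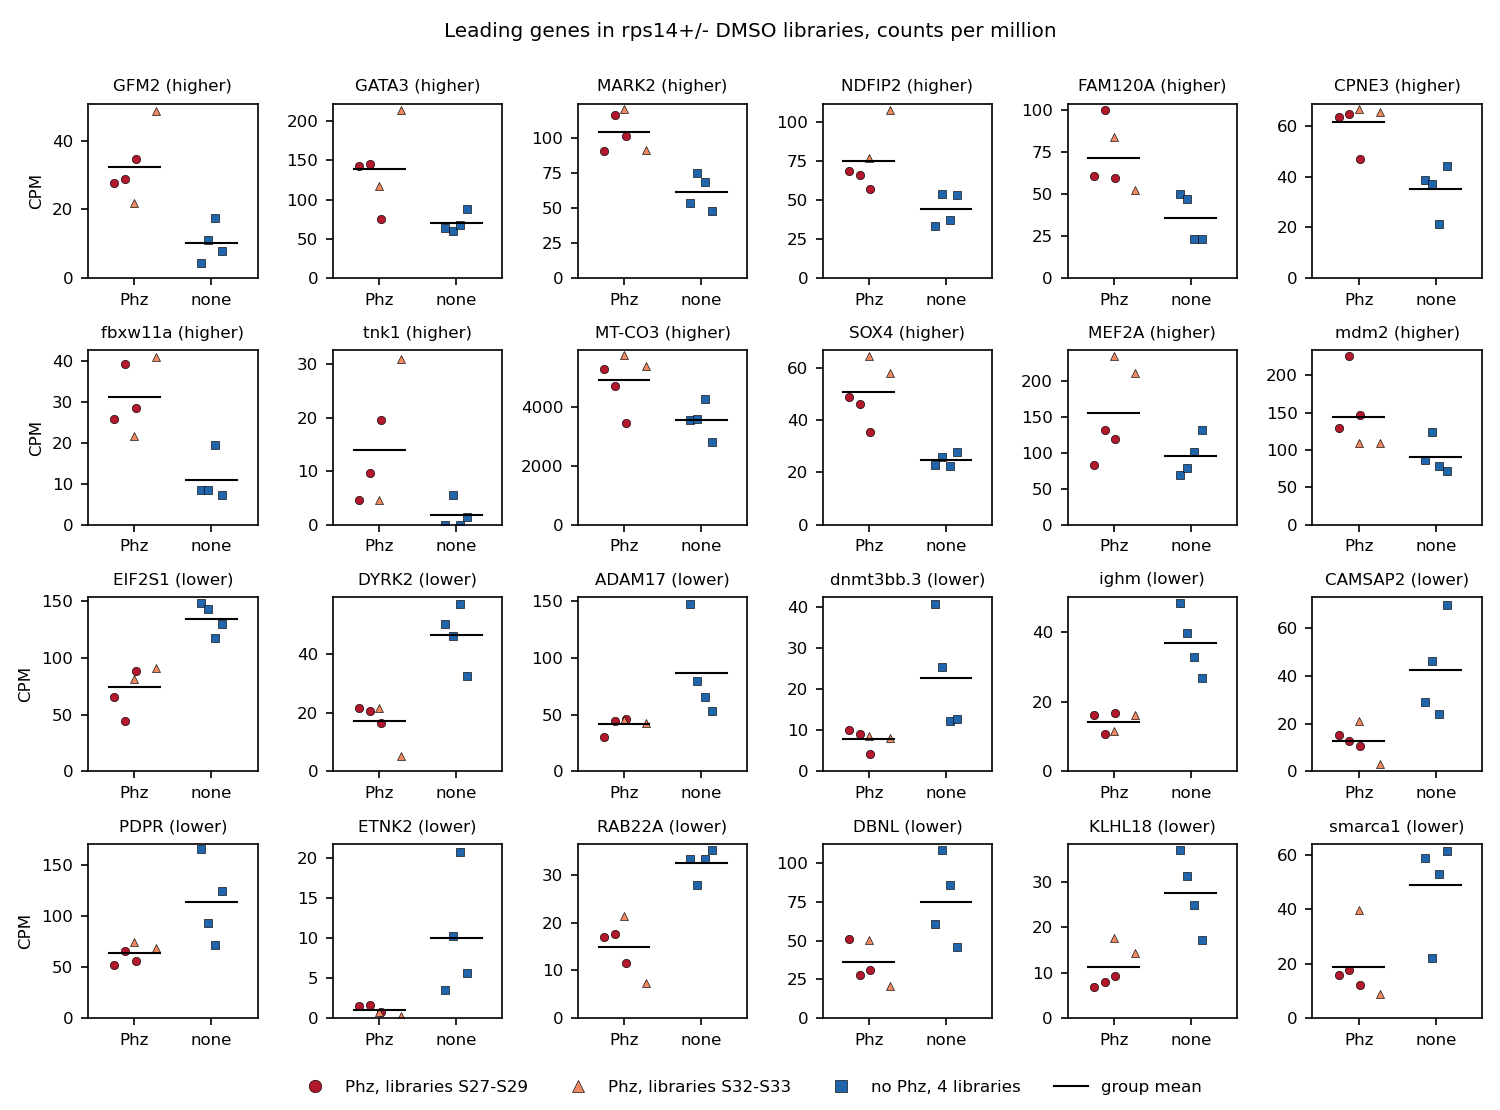
CPM of the 24 leading genes in each of the 9 heterozygous DMSO libraries (circles, Phz S27 to S29; triangles, Phz S32 to S33; squares, unstressed; lines, group means; each axis starts at 0). The 12 higher genes are in the upper 2 rows and the 12 lower genes in the lower 2 rows. Groups do not overlap for 7 and 8 of them, against 0.477% and 1.06% of all genes. The 24 were picked by p, and none passed the adjusted threshold.

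The leading genes pointed the same way in both number sets, 24 of 24, a direction that choosing them on the pooled libraries largely fixes. GFM2 had a log2 fold change of 1.68 in S27 to S29 and 1.78 in S32 to S33, and ADAM17 −1.02 and −1.01. Sizes differed for some: MEF2A had 0.32 in S27 to S29 and 1.22 in S32 to S33, and mdm2 0.98 and 0.26. In wild-type DMSO libraries, which share no sample with these, 9 of the 12 higher genes had a positive Phz log2 fold change, where 44.9% of all genes did, and 8 of the 12 lower genes a negative one. With imiquimod in heterozygous cells 4 of the 12 higher and 7 of the 12 lower genes kept their direction, against 46.9% of all genes positive.

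More genes were called between the number sets than between Phz and none. In the same model with the Phz group divided, S27 to S29 against S32 to S33 gave 57 genes at an adjusted p under 0.05 (0.286% of those tested), of which 55 (0.276%) were higher in S27 to S29 and 2 lower, and 2536 genes (12.7%) at an unadjusted p under 0.05. S27 to S29 against the unstressed libraries gave 0 genes (0%; 1400 at an unadjusted p under 0.05, 7.02%; DESeq2 17, limma voom 0). S32 to S33 against the same unstressed libraries gave 8 genes (0.0401%; 2288 at an unadjusted p under 0.05, 11.5%). Both use the same 4 controls and are given side by side. MEF2A was the 1 gene of the 8 that rose in S32 and S33 (log2 fold change 1.22). The 7 that fell there were slc3a2a (heavy chain of amino acid transporters, −2.07), SLC16A6 (a monocarboxylate transporter, −5.11), ZFP36L1 (an mRNA-decay factor, −3.28), BACH1 (a repressor of haem oxygenase that responds to haem, −3.22), lgals3bp.1 (−3.32), xaf1 and igf2b. Leaving out 1 library moved the 57 to between 6, without S33, and 129, without S32. It moved the 8 to between 0, without S33, and 86, without S32, and in both cases the S32 to S33 set was 1 library, taken to vary like the other groups. Without S27, S28 or S29 the 57 became 23, 22 and 24, and without the unstressed library S17 the 8 became 4. The count also depended on the tool, 785 with DESeq2 and 28 with limma voom for the 57, and 584 and 17 for the 8.

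SLC16A6, a symbol that 2 genes share, had the smallest p between the sets with the gene of higher counts. S27 to S29 had 68.2, 42.9 and 64.2 CPM, S32 and S33 had 0.509 and 1.64 CPM, and unstressed libraries 19.3, 57.6, 47.8 and 22.5 CPM (log2 difference 5.89, SE 0.79, edgeR adjusted p 0.000406). BACH1 had 31.1, 36.0 and 41.8 CPM in S27 to S29, 1.65 and 4.62 CPM in S32 and S33, and 23.9 to 33.7 CPM in unstressed libraries. In both genes S32 and S33 stood apart from all 7 other libraries. The 12 genes named by p and level were SLC16A6, ZFP36L1, slc3a2a, BACH1, ctnnb2, ATP6AP2, csf1ra, slc41a3, xaf1, igf2b, ciarta and samsn1a, all of them higher in S27 to S29. A gene of the clock-repressor family, ciarta, had 525, 560 and 599 CPM in S27 to S29, 185 and 192 CPM in S32 and S33, and 294 to 394 CPM in unstressed libraries. The wild-type Phz DMSO libraries carry the numbers S26, S30 and S31, and there S26 lay above both S30 and S31 for 46 of the 55 genes higher in S27 to S29, where it did so for 30.6% of all genes tested. The SLC16A6 gene of higher counts had 35.5 CPM in S26, above 22.5 and 13.6 CPM in S30 and S31. BACH1 had 11.7 CPM in S26, below 21.8 and 19.7 CPM in S30 and S31. csf1ra had 29.6 CPM in S26, between 18.1 and 31.6 CPM in S30 and S31. With 1 wild-type library on one side, the comparison of S26 with S30 and S31 has no replicate check.

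The division ran through proinflammatory genes. NF-kB is held in the cytoplasm by inhibitor proteins, is freed by Toll-like, interleukin 1 and tumour necrosis factor receptors, and switches on cytokines together with its own inhibitors. Over all 5 Phz libraries, 43 of 56 tested members of this list had a positive log2 fold change (76.8%, against 46.2% of all genes), with a median of 0.64 against −0.05, and 6 were higher and 4 lower at an unadjusted p under 0.05 (2.42% and 4.57% of all genes were), none at the adjusted one. The median was 1.22 in S27 to S29 and −1.11 in S32 to S33, beside −0.09 and −0.20 over all genes. S27 to S29 lay above both S32 and S33 for 34 of the 56 (60.7%, against 14.4% of all genes), and 21 were above all unstressed libraries in S27 to S29 (37.5%, against 3.13%). In the test between the sets 27 were higher in S27 to S29 at an unadjusted p under 0.05 (9.07% of all genes were). Only CEBPB and RIPK2 of the list passed the adjusted threshold between the sets.

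Among the cytokines, il1b (ENSDARG00000098700) had 1172, 844 and 995 CPM in S27 to S29 and 2.42 and 0.894 CPM in S32 and S33, against 45.5, 149, 489 and 61.9 CPM in unstressed libraries. S27 to S29 were above, and S32 and S33 below, every unstressed library, yet the spread over the model left the difference between the sets short of the threshold (log2 difference 9.31, SE 2.70, edgeR adjusted p 0.155). A tumour necrosis factor gene, tnfb, had 396, 209 and 230 CPM in S27 to S29 and 10.8 and 0.149 CPM in S32 and S33, against 64.2, 89.4, 306 and 81.2 CPM without Phz. Here the unstressed library S17 reached into the range of S27 to S29. In the wild type il1b had 1292 CPM in S26, 5.39 in S30 and 3.34 in S31, against 81.0, 496 and 964 CPM in unstressed wild-type libraries. For il1b both genotypes thus had Phz libraries on either side of the unstressed ones. Wild-type tnfb had 381 CPM in S26, inside the unstressed range of 33.3 to 415 CPM, and 2.63 and 4.15 CPM in S30 and S31, below it.

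Of the feedback inhibitors 11 of 12 had a positive pooled log2 fold change. By number set 11 of 12 were positive in S27 to S29 (median 1.31) and 2 of 12 in S32 to S33 (median −1.53). NFKBIZ, an atypical inhibitor protein that also co-activates some targets, had 39.2, 44.0 and 25.7 CPM in S27 to S29 and 8.78 and 8.64 CPM in S32 and S33, against 9.04, 5.5, 9.67 and 8.78 CPM without Phz. Only S27 to S29 stood above the unstressed range (pooled log2 fold change 1.69, SE 0.53, unadjusted p 0.00296, edgeR adjusted p 0.57). The inhibitor nfkbiaa had 1316, 672 and 942 CPM in S27 to S29 and 30.9 and 67.2 CPM in S32 and S33, against 190, 282, 992 and 220 CPM without Phz. All 6 transcription factors of the list were positive in the pooled comparison, with 6 positive in S27 to S29 and 3 in S32 to S33 (medians 1.05 and 0.02). Among them relb, the partner of NF-kB2 in the non-canonical pathway, had a pooled log2 fold change of 0.61 (SE 0.28), and REL 0.90 (SE 0.63). CEBPB, a transcription factor of emergency granulopoiesis and macrophages, had 4112, 5346 and 4718 CPM in S27 to S29 and 575 and 667 CPM in S32 and S33, against 1418, 2278, 2139 and 1604 CPM without Phz. The sets lay on opposite sides of all unstressed libraries and differed past the threshold (log2 difference 3.04, SE 0.62, edgeR adjusted p 0.0367). Wild-type Phz libraries had 3278 CPM in S26 and 604 and 857 CPM in S30 and S31, against 1580, 3553 and 4137 CPM in unstressed wild-type libraries, so S26 lay inside the unstressed range and S30 and S31 below it. S27 to S29 above and S32 to S33 below every unstressed library was the pattern of 100 genes of all tested (0.502%), and of 5 of the 56, which besides CEBPB and il1b were csf3b, BIRC2 and ZC3H12A.

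**Figure D2:**
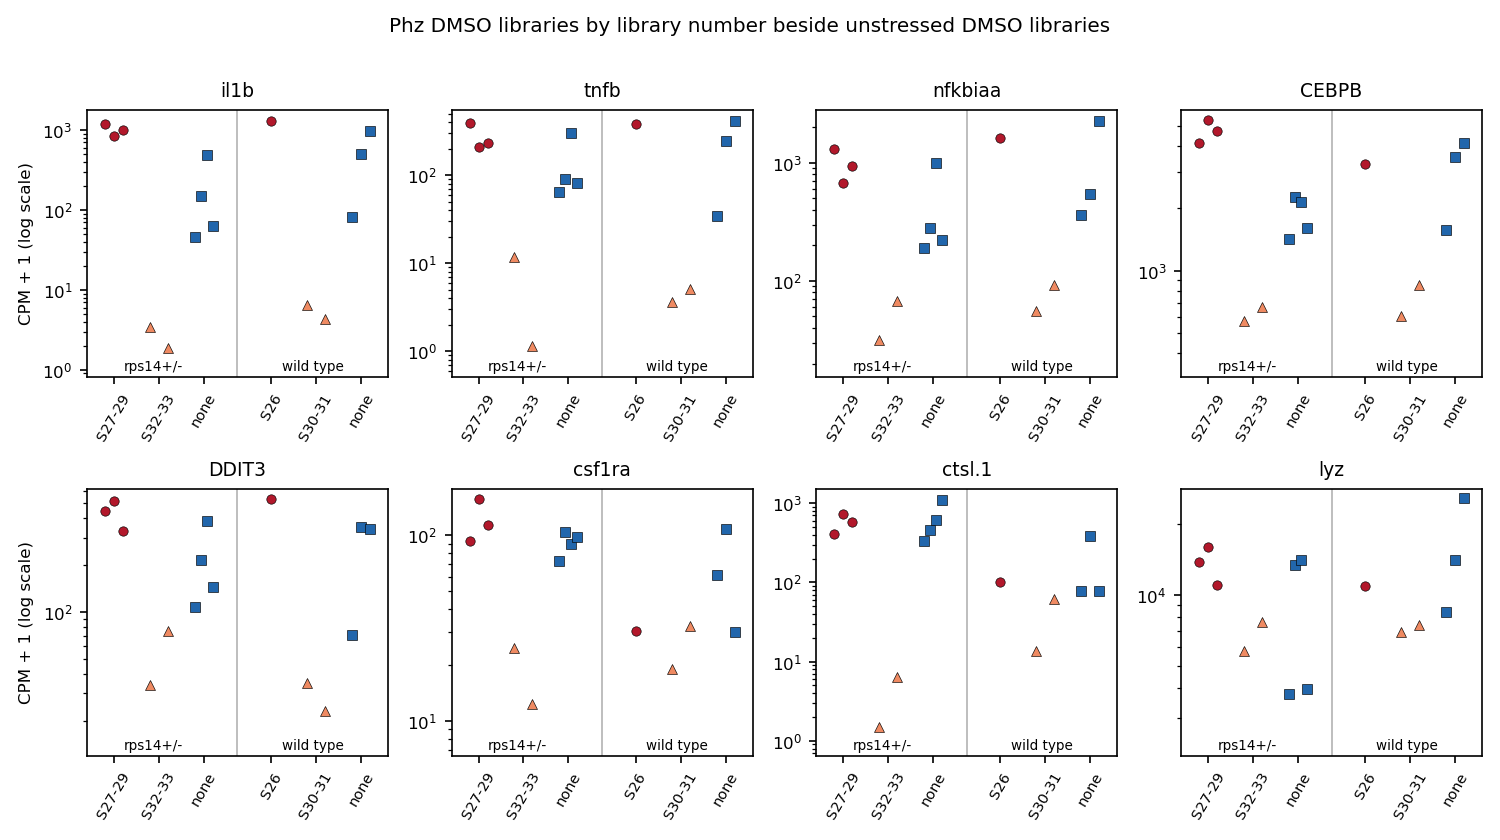
CPM + 1 on a log axis for il1b, tnfb, nfkbiaa, CEBPB, DDIT3, csf1ra, ctsl.1 and lyz, with Phz DMSO libraries by library number (circles, S27 to S29 or S26; triangles, S32 to S33 or S30 to S31) beside unstressed DMSO libraries (squares), heterozygous left and wild type right in each panel. For il1b and CEBPB the heterozygous S27 to S29 sit above and S32 to S33 below all 4 unstressed libraries; the genes were chosen after their values were seen.

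In the Toll-like receptor pathway, upstream of NF-kB, 19 of 34 tested members were positive (55.9%, against 46.2% of all genes) and the median was 0.09. The adaptors ticam1 (log2 fold change 1.1, SE 0.42) and TAB2 (0.92, SE 0.38) were higher at an unadjusted p under 0.05 and 0 members lower (2.42% and 4.57% of all genes were). The list's median was 0.25 in S27 to S29 and −0.44 in S32 to S33, beside −0.09 and −0.20 over all genes. Immediate-early genes, which cells switch on within minutes of a stimulus, followed the number sets: their median was 0.49 in S27 to S29 and −1.48 in S32 to S33 (0.14 pooled). S27 to S29 above and S32 to S33 below all unstressed libraries held for 9 of 48 (18.8%, against 0.502% of all genes), namely ATF3, CSRNP1, DUSP5, JUN, both JUNB genes, JUND, KLF6 and NR4A1. JUN had 738, 717 and 560 CPM in S27 to S29 and 30.5 and 5.06 CPM in S32 and S33, against 88.7, 199, 510 and 97.4 CPM without Phz. FOS had the same order between the sets as JUN, but not the same place beside the unstressed libraries. It had 315, 315 and 211 CPM in S27 to S29 and 104 and 109 CPM in S32 and S33, against 392, 294, 296 and 465 CPM without Phz (pooled log2 fold change −0.71, SE 0.35). S27 and S28 lay inside the unstressed range and the other 3 Phz libraries below it. In the pooled comparison 27 of the 48 immediate-early genes were positive (46.2% of all genes were). At an unadjusted p under 0.05, 1 was higher and 4 were lower (2.42% and 4.57% of all genes were). BTG1, an antiproliferative co-regulator, was the list's smallest p (0.64, SE 0.21).

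Of the integrated and unfolded protein stress response list 27 of 53 were positive with a median of 0.03, its targets 14 of 36 with a median of −0.10 and its sensors and kinases 4 of 8 with a median of 0.02. The list's median was 0.25 in S27 to S29 and −0.42 in S32 to S33. Its 9 transcription factors, which drive amino acid synthesis and cell death programmes after eIF2 phosphorylation or protein misfolding, all had a positive pooled log2 fold change (median 0.50). Of them 9 of 9 were positive in S27 to S29 (median 1.1) and 2 of 9 in S32 to S33 (median −0.87). DDIT3, the proapoptotic factor CHOP, had 447, 517 and 331 CPM in S27 to S29 and 32.8 and 74.2 CPM in S32 and S33, against 107, 216, 387 and 144 CPM without Phz. The unstressed library S17 overlapped S27 to S29, and S32 and S33 were below all others. XBP1, a regulator of the unfolded protein response, had 585, 708 and 867 CPM in S27 to S29 and 271 and 331 CPM in S32 and S33, against 328, 534, 461 and 260 CPM without Phz. cebpg, a partner of ATF4, differed from them. It had 53.9, 49.3, 53.8, 35.9 and 92.1 CPM in Phz libraries, against 7.82, 27, 24.2 and 41.0 CPM without (log2 fold change 1.24, SE 0.40, edgeR adjusted p 0.57). S32 alone fell inside the unstressed range.

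Myeloid markers moved with these genes. Neutrophil markers had a median log2 fold change of 0.51 in S27 to S29 and −0.58 in S32 to S33, and S27 to S29 lay above both S32 and S33 for 18 of 26 (69.2%, against 14.4% of all genes). The granule lysozyme lyz had 13728, 15921 and 10964 CPM in S27 to S29 and 5764 and 7630 CPM in S32 and S33, against 3800, 13394, 14076 and 3988 CPM without Phz. The unstressed libraries fell on both sides, S16 and S17 with the higher and S4 and S18 below all Phz libraries. il1b and tnfb were also highest in S17 among the unstressed. The summed neutrophil list was 21907, 25698 and 18042 CPM in S27 to S29, 9462 and 12273 CPM in S32 and S33, and 8527, 21184, 22328 and 8805 CPM without Phz. Its part in the proinflammatory values was not tested.

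Macrophage markers were low in S32 and S33 rather than high in S27 to S29: the medians were −0.94 and 0.01, and 19 of 40 (47.5%) lay below all unstressed libraries in S32 and S33, where 8.36% of all genes did. Over all 5 Phz libraries 10 of the 40 (25%) had a positive log2 fold change, against 46.2% of all genes, with a median of −0.21. Wild-type cells had 10 of 40 positive (25%, against 44.9%) with a median of −0.53. Heterozygous cells with imiquimod had 6 of 40 positive (15%, against 46.9%) with a median of −0.50. csf1ra, the receptor for colony-stimulating factor 1 on macrophages and also on yellow pigment cells, had 92.2, 156 and 112 CPM in S27 to S29 and 23.7 and 11.3 CPM in S32 and S33, against 72.1, 103, 89.0 and 97.5 CPM without Phz (log2 difference between the sets 2.88, SE 0.53, edgeR adjusted p 0.0109). The lysosomal protease ctsl.1 had 406, 734 and 582 CPM in S27 to S29 and 0.509 and 5.36 CPM in S32 and S33, against 332, 454, 612 and 1098 CPM without Phz (7.75, SE 1.56, adjusted p 0.0367). Apolipoprotein apoeb, carried by microglia and macrophages, had 214, 302 and 224 CPM in S27 to S29 and 12.6 and 3.57 CPM in S32 and S33, against 401, 438, 720 and 464 CPM without Phz. For these 3 genes S32 and S33 were below the other 7 libraries, and for apoeb S27 to S29 were also below every unstressed library. The list member MPEG1 (ENSDARG00000055290) was low in S32 but not in S33. It had 122, 134 and 71.5 CPM in S27 to S29 and 35.0 and 125 CPM in S32 and S33, against 121, 108, 149 and 64.5 CPM without Phz. A gene outside any list, picked after its values were seen, is gch2, a pteridine synthesis enzyme of yellow pigment cells. It had 308, 228 and 143 CPM in S27 to S29 and 4.96 and 0 CPM in S32 and S33, against 427, 131, 168 and 201 CPM without Phz, and 118 CPM in wild-type S26 with 4.01 and 5.22 CPM in S30 and S31. The part of macrophage markers in the 57 genes was not tested.

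**Figure D3:**
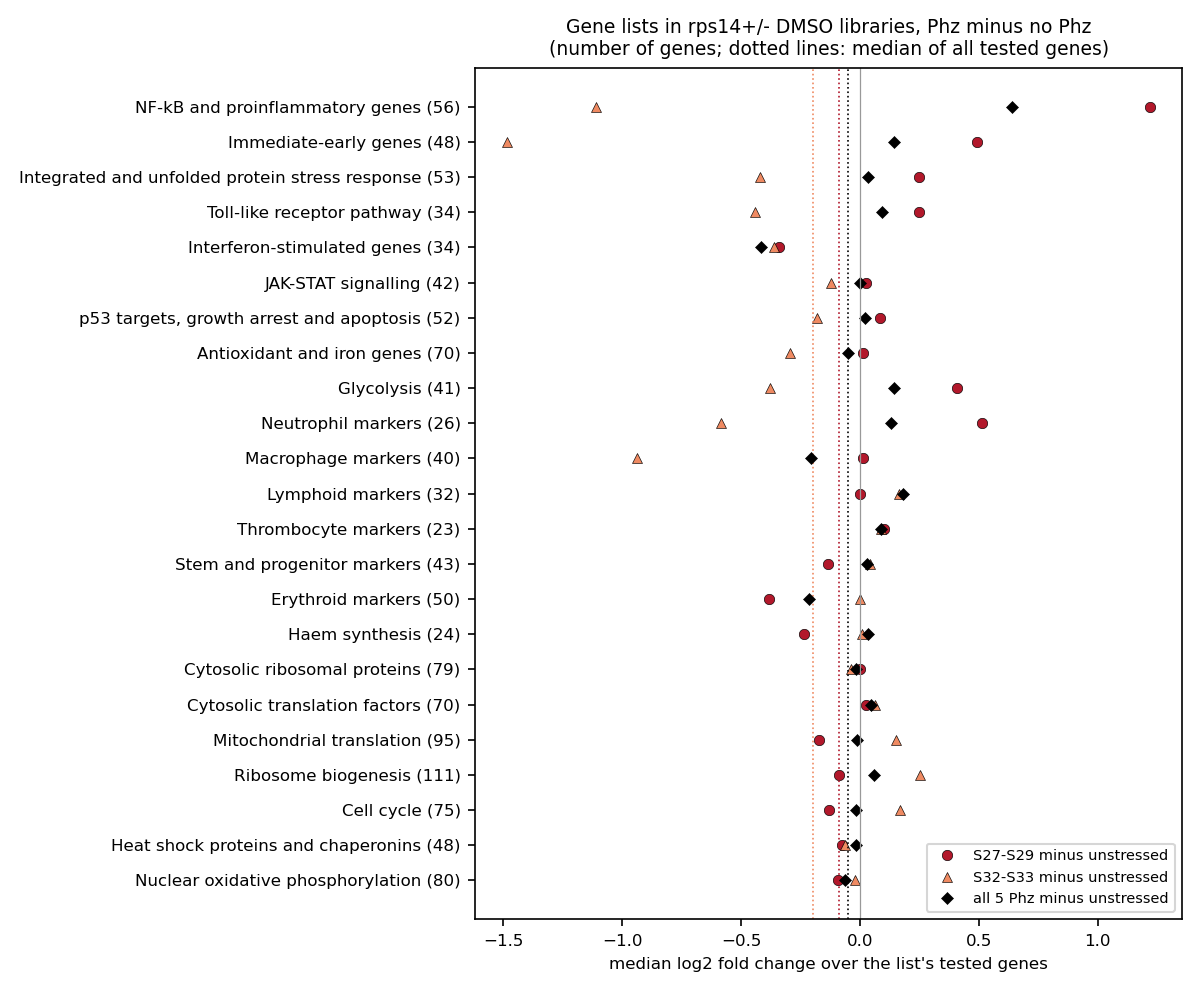
Median log2 fold change of 23 gene lists, Phz minus unstressed, for S27 to S29 (circles), S32 to S33 (triangles) and all 5 Phz libraries (diamonds), with the number of tested genes after each name and the median of all genes as dotted lines. Both sets use the same 4 unstressed libraries; proinflammatory, immediate-early and neutrophil lists sit right of 0 in one set and left of it in the other.

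Genes of ribosome assembly had the opposite order. Assembly factors and RNA polymerase I subunits build the ribosomal subunits that Rps14 becomes part of. S27 to S29 lay below both S32 and S33 for 71 of 111 (64.0%, against 15.2% of all genes), and S32 and S33 lay above all unstressed libraries for 37 (33.3%, against 6.95%). The median was −0.09 in S27 to S29 and 0.25 in S32 to S33, small shifts spread over the list, and none of the 111 passed between the sets (15 were lower in S27 to S29 at an unadjusted p under 0.05, where 3.65% of all genes were). GNL3, the nucleolar protein nucleostemin, had the smallest pooled p: 272, 253, 338, 391 and 372 CPM in Phz libraries, against 248, 270, 205 and 237 CPM without (log2 fold change 0.48, SE 0.16, unadjusted p 0.00586, edgeR adjusted p 0.578). All but S28 lay above the unstressed range. Mitochondrial translation (median −0.17 and 0.15 in the sets) and the cell cycle (−0.13 and 0.17) followed the same order. Cytosolic ribosomal proteins had medians of 0.00 and −0.04 and 37 of 79 positive in the pooled comparison. The chaperone HSP90AB1 had 6338, 6931, 6708, 9738 and 9156 CPM with Phz, against 5668, 6852, 6416 and 6247 CPM without (log2 fold change 0.35, SE 0.12), S32 and S33 being the high ones.

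No erythroid gene, of the lineage that Phz depletes, passed the adjusted threshold in heterozygous cells at 6 days. Of 50 tested, 19 (38.0%) had a positive log2 fold change, against 46.2% of all genes, and the median was −0.21, against −0.05. At an unadjusted p under 0.05, 1 was higher and 4 were lower, together 10% of the list. Of all genes 2.42% were higher and 4.57% lower, together 6.99%. The median was −0.38 in S27 to S29 and 0.00 in S32 to S33. Globins had 1 of 7 positive with a median of −0.69, which was −1.45 with 0 of 7 positive in S27 to S29 and −0.09 with 3 of 7 positive in S32 to S33, and erythroid transcription factors had 6 of 15 positive with a median of −0.10. SPTB, the beta spectrin of the red cell skeleton, had 157, 269, 124, 246 and 264 CPM in Phz libraries, against 543, 359, 216 and 344 CPM without (log2 fold change −0.75, SE 0.35). hemgn, a nuclear regulator of erythroid differentiation, had 8.37, 11.3, 14.3, 24.4 and 11.6 CPM with Phz, against 48.2, 26.05, 21.6 and 23.9 CPM without (−1.06, SE 0.45). In both genes the groups overlapped by 1 unstressed library or more, and neither passed the adjusted threshold (edgeR adjusted p 0.691 and 0.637). gata1a, the master regulator of the lineage, was divided by number: 10.9, 7.53 and 27.4 CPM in S27 to S29 and 47.3 and 73.0 CPM in S32 and S33, against 99.6, 31.3, 21.4 and 88.4 CPM without Phz. The summed erythroid list was 3640, 4603 and 4192 CPM in S27 to S29 and 7194 and 6162 CPM in S32 and S33, against 7129, 4925, 3536 and 6904 CPM without Phz. The lower sums in either group came with high lyz: S27 to S29, S16 and S17.

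Wild-type cells had the opposite sign on this list, with 38 of 50 positive (76.0%, against 44.9% of all genes), a median of 0.76, 0 called and 11 higher at an unadjusted p under 0.05 (3.67% of all genes were). Heterozygous cells with imiquimod also had 38 of 50 positive (76.0%, against 46.9% of all genes), with a median of 0.44 and 0 called. For the imiquimod by Phz interaction 7 of the 50 had an unadjusted p under 0.05 (5.48% of all genes did). The genotype by Phz interaction had 0 of 19930 genes past the edgeR threshold (0%). Unadjusted, 1514 (7.6%) had p under 0.05, while 57 passed in DESeq2 and 0 in limma voom. It was negative for 40 of the 50 erythroid genes (80.0%, against 47.3% of all genes), with 10 lower and 1 higher at an unadjusted p under 0.05 (3.58% and 4.02% of all genes were). Other lists differed between the genotypes too. The interaction was negative for 1 of 26 neutrophil markers (3.85%), of which wild-type cells had 4 positive (15.4%) with a median of −0.56. For ribosome biogenesis it was negative for 82 of 111 (73.9%), of which wild-type cells had 95 positive (85.6%). alas2, the first enzyme of haem synthesis in red cells, had 25.7, 3.27, 8.64, 12.98 and 29.3 CPM in heterozygous Phz libraries, against 34.6, 46.0, 20.0 and 37.0 CPM in unstressed ones (log2 fold change −1.07, SE 0.65). In the wild type it had 48.0, 42.2 and 84.4 CPM with Phz, against 17.5, 11.6 and 2.38 CPM without (2.48, SE 0.84). The groups did not overlap in the wild type, and the difference between the genotypes had a log2 of −3.55 (SE 1.05, unadjusted p 0.00222, edgeR adjusted p 0.565). The skeletal protein epb41b had 155, 132, 129, 280 and 202 CPM in heterozygous Phz libraries, against 229, 244, 146 and 213 CPM without, while wild-type libraries had 230, 335 and 232 CPM with Phz, against 178, 91.2 and 92.6 CPM without (difference −1.30, SE 0.37, unadjusted p 0.00132, adjusted p 0.565). Summed over the list, wild-type libraries had 4832, 8424 and 7528 CPM with Phz, against 5909, 2609 and 2684 CPM without. The low wild-type unstressed libraries S13 and S14 had neutrophil sums of 22223 and 38194 CPM, against 15393 CPM in S3, and the part of this in the interaction was not tested. By library number the median log2 fold change was −0.38 in S27 to S29 beside 0.00 in wild-type S26, and 0.00 in S32 and S33 beside 0.97 in wild-type S30 and S31. The heterozygous value was the lower one in each number range. Both ranges of a genotype use the same unstressed libraries, in the wild type S13 and S14 among them. S26 is 1 library, so the ranges are no separate check of the difference.

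**Figure D4:**
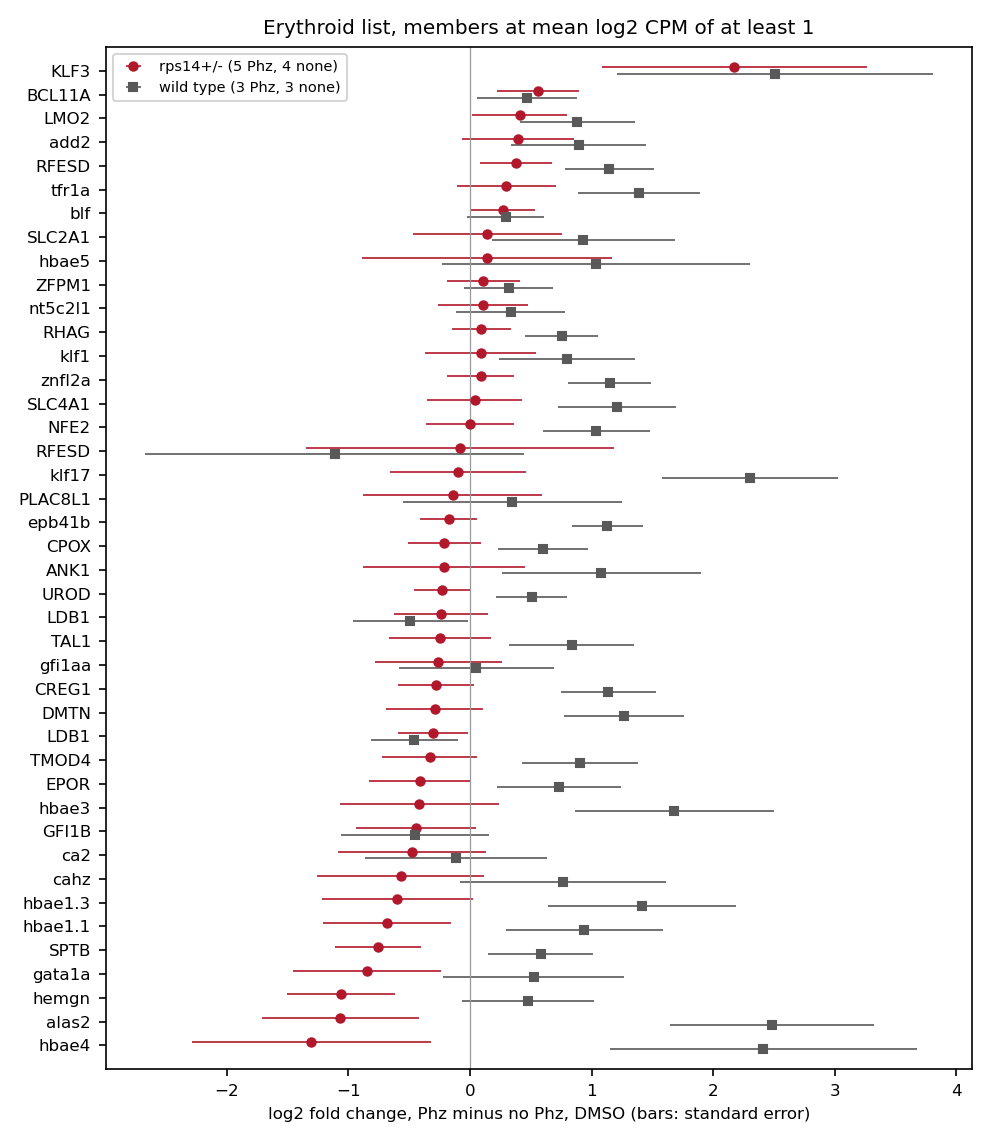
Log2 fold change (Phz minus unstressed, DMSO) with its standard error for erythroid genes at a mean of at least 1 log2 CPM, heterozygous (circles, 5 Phz and 4 unstressed libraries) and wild type (squares, 3 and 3), ordered by the heterozygous value. Most wild-type values lie to the right of the heterozygous ones; alas2 has −1.07 and 2.48.

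Over all 5 Phz libraries the remaining lists gave few differences from unstressed heterozygous cells. p53 targets, which ribosomal stress can switch on through MDM2, had a median of 0.02 with 27 of 52 positive (46.2% of all genes were), 4 higher and 0 lower at an unadjusted p under 0.05 (2.42% and 4.57% of all genes). Besides mdm2 these included DDB2, a DNA damage recognition factor, with 122, 120, 139, 138 and 114 CPM in Phz libraries, against 61.2, 70.6, 115 and 98.6 CPM without (log2 fold change 0.61, SE 0.22). S33 alone fell inside the unstressed range. By number set the median of the p53 list was 0.08 in S27 to S29 and −0.18 in S32 to S33. Of its members 9 lay above all unstressed libraries in S27 to S29 (17.3%, against 3.13% of all genes). In S32 and S33, 12 lay below them (23.1%, against 8.36%). BCL6, GADD45A, PLK2 and pmaip1 did both (7.69%, against 0.502%). For 34 interferon-stimulated genes, of which 11 were positive, the median stood at −0.41, and at −0.04 without the unstressed library S4, whose summed level of the list was 893 CPM against 541 to 653 CPM in the other unstressed and 535 to 600 CPM in the Phz libraries. The list's more abundant low-p member, gbp3, had 22.8, 23.7, 14.1, 10.7 and 17.4 CPM with Phz, against 89.1, 25.3, 27.98 and 29.5 CPM without. Antioxidant and iron genes had a median of −0.05. Among them tfa, the iron carrier transferrin, had 92.2, 112, 81.2, 102 and 122 CPM with Phz, against 74.3, 56.3, 65.1 and 38.8 CPM without (log2 fold change 0.84, SE 0.28, edgeR adjusted p 0.57), with no overlap. In the wild type its log2 fold change was 1.26 (SE 0.33). tfa is also on the list of liver and exocrine pancreas markers, and the part of such tissue in its values was not tested. Stem and progenitor markers had a median of 0.03 and thrombocyte markers of 0.09. The adhesion receptor adgrg1, which acts in stem cell formation, had 193, 243 and 188 CPM in S27 to S29 and 79.5 and 38.7 CPM in S32 and S33, against 58.5, 68.6, 67.5 and 87.3 CPM without Phz. The progenitor factor MYB had 521, 551 and 577 CPM in S27 to S29 and 1162 and 986 CPM in S32 and S33, against 897, 699, 488 and 858 CPM without. S32 and S33 lay above all unstressed libraries for MYB, with S27 to S29 inside their range. For adgrg1 S27 to S29 lay above them, S32 inside their range and S33 below it. Glycolytic genes had a median of 0.14, with 0.41 in S27 to S29 and −0.38 in S32 to S33.

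Markers of tissues that the sort should leave out were mostly low and uneven. Summed liver and exocrine pancreas genes were 9527 CPM in S27 and 534 to 1095 CPM in the other Phz libraries, against 5781 CPM in S17 and 648 to 943 CPM in the other unstressed ones. Skeletal muscle, epidermis and neural lists had sums of 251 to 1132 CPM with Phz and 243 to 1574 CPM without. Their medians rested on genes near 0.

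For the interaction with genotype, the genes of smallest p were mief2, a mitochondrial fission adaptor (difference 4.57, SE 0.91, edgeR adjusted p 0.344), ACSF3 (−5.45), DHX30 (−3.14), RHBDF1 (1.09) and ADD3 (1.74). mief2 had 21.9, 11.5, 22.1, 8.40 and 23.4 CPM in heterozygous Phz libraries, against 4.40, 11.4, 9.15 and 3.51 CPM in unstressed ones, and its wild-type log2 fold change was −3.22. DESeq2 called mief2, ACSF3 and DHX30 and left RHBDF1 and ADD3 uncalled. With S26 to S29 as the Phz libraries of both genotypes, which leaves wild-type Phz with S26 alone, edgeR called 59 genes, and with S30 to S33 it called 0. For the imiquimod by Phz interaction 0 genes (0%) passed in edgeR, 0 in limma voom and 10 in DESeq2. Unadjusted, 1093 (5.48%) had p under 0.05, 462 of them higher (2.32%) and 631 lower (3.17%). Its 5 genes of smallest p were SOX4 (difference 2.22, SE 0.47, adjusted p 0.461), MT-CO3 (1.00), hnrnpa0l (−0.86), the elongation factor eef2b (0.89) and NDFIP2 (1.36), of which SOX4, MT-CO3 and NDFIP2 are also leading genes of the Phz comparison under DMSO, with which the interaction shares its samples. Under imiquimod the Phz log2 fold change of SOX4 was −1.15, against 1.07 under DMSO.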

How the data were processed

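RNA of sorted itga2b:GFP-low cells was sequenced as Smart-seq2 libraries, per the labels' protocols. The submitters' processing notes name FastQC 0.11.9, Trimmomatic 0.39, HISAT2 2.1.0, SAMtools 1.9, featureCounts of Subread 2.0.0 and DESeq2, and the build GRCz11; the annotation and strand setting are not given in the sources used here, so reads of overlapping genes, and of near-identical copies, may be shared. The authors deposited raw counts for 20631 genes in 30 libraries (the lowest gene total is 25); the 30 columns matched the labels and 0 were left unmapped. No 2 libraries were identical. Symbols came from a gene table (19528 of 20631 IDs matched), which writes some in capitals; a symbol may cover 2 genes, as for MARK2, SOX4, EIF2S1, ADAM17 and CAMSAP2.

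From these counts, genes were filtered by filterByExpr (19930 kept), scaled by TMM and tested in 1 edgeR 4.0.16 quasi-likelihood model (R 4.3.3) with a coefficient for each of 8 groups, and Benjamini-Hochberg adjustment over all genes. A second model divided the Phz group into S27 to S29 and S32 to S33. DESeq2 1.42.0, limma voom 3.58.1, other scalings, filters, covariates and omitted libraries were alternatives. Standard errors are the log2 fold change over the root of F. Library measures used exact permutation of 126 splits (smallest p 0.0159). Scripts were tested on simulated data. Lists had 29 names; named genes are rps14, itga2b, tlr7, the 12 of smallest p per direction at a mean of at least 1 log2 CPM, 5 per interaction, and up to 6 of smallest p per list with members a role needs; others, such as il1b, were chosen after their values were seen. The members and lists were chosen with earlier results of these data known.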

Additional observations from a re-analysis of the deposited data

Results flagged for a closer look

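A value was set apart where its gap to the nearest library of its group, over the group's range, passed Dixon's 95% limit. Of 120 group-by-measure sets examined, 13 passed. About 1 in 20, or 6, would by chance if the values were normally distributed and independent. CPM of picked genes and list sums from the same libraries need not be, so 13 beside 6 is no test. In the Phz group CPNE3 was low in S29 (46.9 CPM), ADAM17 low in S27 (30.1 CPM) and smarca1 high in S32 (39.8 CPM). The summed neural and retinal markers (1018 CPM) and liver and exocrine pancreas markers (9527 CPM) were high in S27. In the unstressed group S17 stood apart in 6 measures: TLR7 (5.18 CPM), fbxw11a (19.3 CPM) and the liver and pancreas sum (5781 CPM) and lymphoid sum (2258 CPM) were high, and the ribosome biogenesis sum (18860 CPM) and haem synthesis sum (1405 CPM) were low. The JAK-STAT sum was low in S4 (2582 CPM) and itga2b high in S18 (33.5 CPM).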

How the results depend on the processing

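The count of 0 genes for Phz held under limma voom, RLE scaling, no filter, the term for S1 to S6, the 9 libraries alone, S27 to S29 alone and each omitted library. It was 17 with DESeq2 and 6 with S32 and S33 alone. The 0 of the genotype interaction was 57 with DESeq2, 59 with S26 to S29 alone and 0 to 2 without single libraries; that of the imiquimod interaction was 10 and 0 to 1. For S27 to S29 against S32 to S33 (57), counts were 785 (DESeq2), 28 (voom), 157 (term for S1 to S6), 258 (9 libraries) and 6 to 129 without single libraries. S32 to S33 against unstressed (8) gave 584, 17, 42, 79 and 0 to 86, and S27 to S29 (0) gave 17 with DESeq2 and 13 with the 9 libraries. The cause was not tested.

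Libraries of the same replicate number had correlations of deviations from the group mean of −0.12, 0.09, 0.10 and 0.07. The Phz library of the same number correlated best for S16 and S18, but not for S4 and S17. With no known pair as a reference, these values cannot show or exclude a pairing. As a block the replicate numbers gave 0 genes for Phz, 5 in place of 57 and 0 in place of 8. Medians with the block were 0.23 for endothelial and −0.41 for kidney lists.

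With S32 and S33 alone, list medians were −1.11 (NF-kB), −0.44 (Toll-like), −1.48 (immediate-early), −0.12 (JAK-STAT), −0.38 (glycolysis), −0.58 (neutrophil), −0.94 (macrophage), −1.60 (endothelial), −3.51 (kidney), −1.69 (epidermis), −3.53 (neural) and −4.6 (liver and pancreas); with S27 to S29 alone haem synthesis was −0.23. The interferon median was −0.13 with the S1 to S6 term and −0.0572 in the 9 libraries, and kidney −0.30 there. Without single libraries medians ranged from −0.85 to 0.0376 (endothelial), −0.43 to −0.0355 (interferon), −0.0355 to 0.10 (JAK-STAT), −4.33 to 2.99 (liver and pancreas), −1.83 to −0.16 (neural) and −1.78 to 0.30 (skeletal muscle). TLR7 was 0.88 with voom and −1.51 to 5.35 without single libraries, itga2b −0.59 to 0.18, and the share of the 50 top genes differed by −0.18 (also −0.06) to 0.52 percentage points. Of the values for single genes, 3 reversed and 13 came to pass the adjusted threshold under another setting. The other 694 values for single genes kept their direction and side of the threshold. A further 632 values for counts, medians and library measures also held. Counts stayed within a fixed ratio of the main count and medians within replicate spread. Library measures kept their direction and side of the threshold.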
